A study of Mus musculus with 4 samples.

Results

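The amino acid transporter genes of the mouse were followed in oocytes through follicle growth. Members were taken by gene symbol in the solute carrier (SLC) families SLC1, SLC3, SLC6, SLC7, SLC36, SLC38 and SLC43. By this naming rule 58 of the 25587 genes in the table were members. These were 7 genes of SLC1, 2 of SLC3, 17 of SLC6, 15 of SLC7, 4 of SLC36, 10 of SLC38 and 3 of SLC43. Slc6a20a and Slc6a20b, which belong to SLC6 by sequence, have symbols outside the rule, and a gene of SLC38 was left out.

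Total RNA depleted of ribosomal RNA was sequenced from pooled oocytes of wild-type C57BL/6 mice (C57BL/6Babr in the study's methods), at 4 stages of folliculogenesis with 1 library each. These were non-growing oocytes (NGOs), growing oocytes in 2 pools (GO1 and GO2), and fully grown oocytes at the germinal vesicle stage (FGOs). The mice were 5 to 20 days old and untreated as far as the labels say. The labels give no age for a single library, but the paper does, from 5 days for NGOs to 20 days for FGOs. In the paper GO1 is a pool over a range of ages, all below that of GO2. The range of oocyte sizes in GO1 overlaps that of NGOs and takes in all of that of GO2. For NGOs and FGOs a dUTP protocol was used, and for GO1 and GO2 a ScriptSeq kit. NGOs were therefore compared with FGOs and GO1 with GO2, and values on either side of a change of protocol are given side by side, since stage and protocol cannot be told apart there. A stage is thus a single library, which allows no test of stages against each other, and no difference has a replicate check.

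Amino acids cross membranes through carriers that couple them to sodium, chloride or protons, or that exchange one amino acid for another. Several carriers of the SLC7 family reach the cell surface only when bound to a heavy chain of the SLC3 family. The growing oocyte takes up some amino acids itself and receives others from granulosa cells through gap junctions, and glycine taken up by its own carrier serves as an osmolyte that controls the volume of mouse eggs and early embryos.

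Levels were given as RPKM, counts scaled by the length of a gene's exons and by the library's total, and the whole counts behind them were recovered. They summed over genes to 61525605 in the NGO, 71719248 in the GO1, 132737850 in the GO2 and 68906473 in the FGO library, so that GO2 was the deepest library. Levels and ratios are relative to the other messages of a library. A rise or fall here need not be one in the amount per oocyte, which was not measured. All intervals are 95% intervals of the recovered counts and cover counting error only. In every library the counts on genes exceeded the uniquely mapped reads given in the paper. Fragments were thus counted more than once, so the intervals are too narrow, and a minimum number of counts stands for fewer fragments.

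All 12 oocyte markers examined, among them the zona pellucida genes Zp1 to Zp3, Gdf9 and Nobox, were at an RPKM of 1 or more in every library. Markers of other ovarian cells were low beside the oocyte markers, which summed to an RPKM of 8107 in NGOs and 4926 in FGOs. The 8 markers of stroma and theca summed to 5.61 RPKM in NGOs, led by Col1a1 at 2.24, against 0.304 in GO1, 0.471 in GO2, and then 0.365 in FGOs, and of these Lum was at 0 in the last 3 libraries and Cyp17a1 in FGOs. The 6 erythroid markers in the table summed to 2.56 RPKM in NGOs, led by Hbb-b2 at 1.38, to 0.0230 in GO1 and 0.0223 in GO2, and all 6 were at 0 in FGOs. Both lists thus summed higher in NGOs than in any other library, though not every gene did so: Star, Cyp17a1 and the erythroid gene Alas2 were higher in GO1 than in NGOs.

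The 11 granulosa cell markers had a sum that was lowest in NGOs, with RPKM of 6.61 in the NGO, 12.1 in the GO1, 16.6 in the GO2 and 19.7 in the FGO library. Nr5a2 was their most abundant gene in every library (3.62 in NGOs and 8.65 in FGOs, and 9.57 in GO1 and 11.4 in GO2), none was at 0, and Foxl2, a defining gene of these cells, stayed at or below 0.0753 RPKM, while Cyp19a1 reached 6.08 in FGOs. They did not move together: from NGOs to FGOs Nr5a2, Cyp19a1, Kitl, Hsd17b1, Inha and Fshr rose, Foxl2 fell, and the other 4 lay within 2-fold. The 5 endothelial markers summed to 3.37 RPKM in NGOs, 7.22 in GO1, 11.1 in GO2, and then 12.4 in FGOs, led by Pecam1, with Emcn at 0 in all 4 libraries and Cdh5 at 0 in GO2 and FGOs. The 4 immune markers in the table, led by Cd68, summed to 0.818, 0.553, 0.643 and 0.364 RPKM, and Lyz2 was at 0 in GO1 and FGOs. In such bulk samples fewer cells of a type and less RNA per cell cannot be told apart.

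A small number of transporter genes carried most of the message. At least 3 counts were found for 41 of the 58 genes in the NGO, 41 in the GO1, 46 in the GO2 and 43 in the FGO library, or 70.7%, 70.7%, 79.3% and 74.1%, where 64.8%, 66.1%, 70.8% and 65.4% of all genes had as many. An RPKM of 1 or more was reached by 17, 15, 16 and 17 of them in the same order, or 29.3%, 25.9%, 27.6% and 29.3%, against 38.4%, 36.6%, 37.4% and 38.5% of all genes in the table. The median RPKM of the members was 0.0730 in the NGO, 0.0541 in the GO1, 0.0435 in the GO2 and 0.0600 in the FGO library, below the median of all genes, which lay between 0.143 in GO1 and 0.173 in FGOs. The same 14 genes were at 1 RPKM or more in every library, 5 further genes in at least 1 library, 11 peaked between 0.1 and 1, and 28 stayed under 0.1 RPKM throughout.

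Summed over all members, RPKM was 191 in the NGO, 146 in the GO1, 146 in the GO2 and 170.5 in the FGO library, and their counts made up 0.196%, 0.173%, 0.171% and 0.170% of all counts on genes. The SLC6 family held 47.5% of the members' summed RPKM in NGOs, 37.7% in GO1, 38.1% in GO2, and then 48.3% in FGOs. SLC7 held 33.5%, 44.3%, 39.7% and 29.6% in the same order. On the RPKM scale SLC6 was therefore the larger family of members in both dUTP libraries, and SLC7 in both ScriptSeq libraries. Stage and protocol cannot be told apart in this order, which also depends on the naming rule. Slc6a20a and Slc6a20b, of SLC6 by sequence, are outside the rule, with RPKM of 6.51 and 5.02 in GO1 and 7.51 and 4.58 in GO2. With them SLC6 would be the larger family in these libraries too. By counts, which are not divided by length, SLC7 was the larger in every library, with 47.3%, 61.3%, 57.1% and 46.1% of the members' counts, again in the order of growth, against 37.1%, 26.2%, 27.0% and 37.1% for SLC6.

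Of the smaller families, SLC38 summed to 18.6 RPKM in NGOs, 11.7 in GO1, 12.1 in GO2, and then 14.5 in FGOs, and SLC3 to 11.1, 8.68, 12.0 and 14.8. SLC43 summed to 3.02 RPKM in NGOs and 5.02, 7.33 and 7.0 in the later stages, while SLC36 summed to 3.13 in NGOs and to 0.688, 0.636 and 0.825 after it. SLC1, the family of the glutamate carriers, never summed to more than 0.528 RPKM. The sums of SLC43 and SLC36 thus had opposite profiles, the former lowest and the latter highest in NGOs. At least 93.6% of the SLC43 sum was Slc43a3 in every library, and Slc43a2 of that family was highest in NGOs, at 0.185 RPKM.

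**Figure D1:**
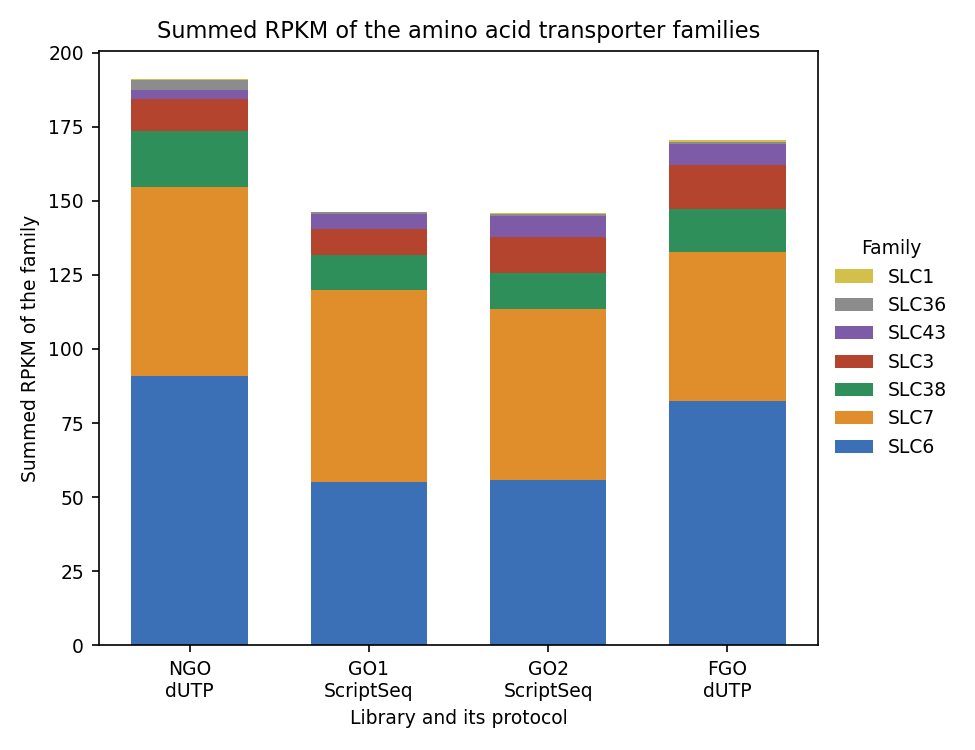
Summed RPKM of the 7 families (stacked bars from 0, coloured by family) in each of the 4 libraries, with the library protocol under each name. SLC6 and SLC7 fill most of every bar; the whole bar stands at 191 RPKM in NGOs and 146 in GO2.

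The same 4 genes led in every library, in differing order: Slc6a9, Slc6a7, Slc7a2 and Slc7a11. Together they made up 65.3% of the members' summed RPKM in NGOs, 63.9% in GO1, 59.0% in GO2, and then 58.6% in FGOs. They carry glycine, proline, cationic amino acids and cystine, so that each of the 4 brings in another class of substrate.

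**Figure D2:**
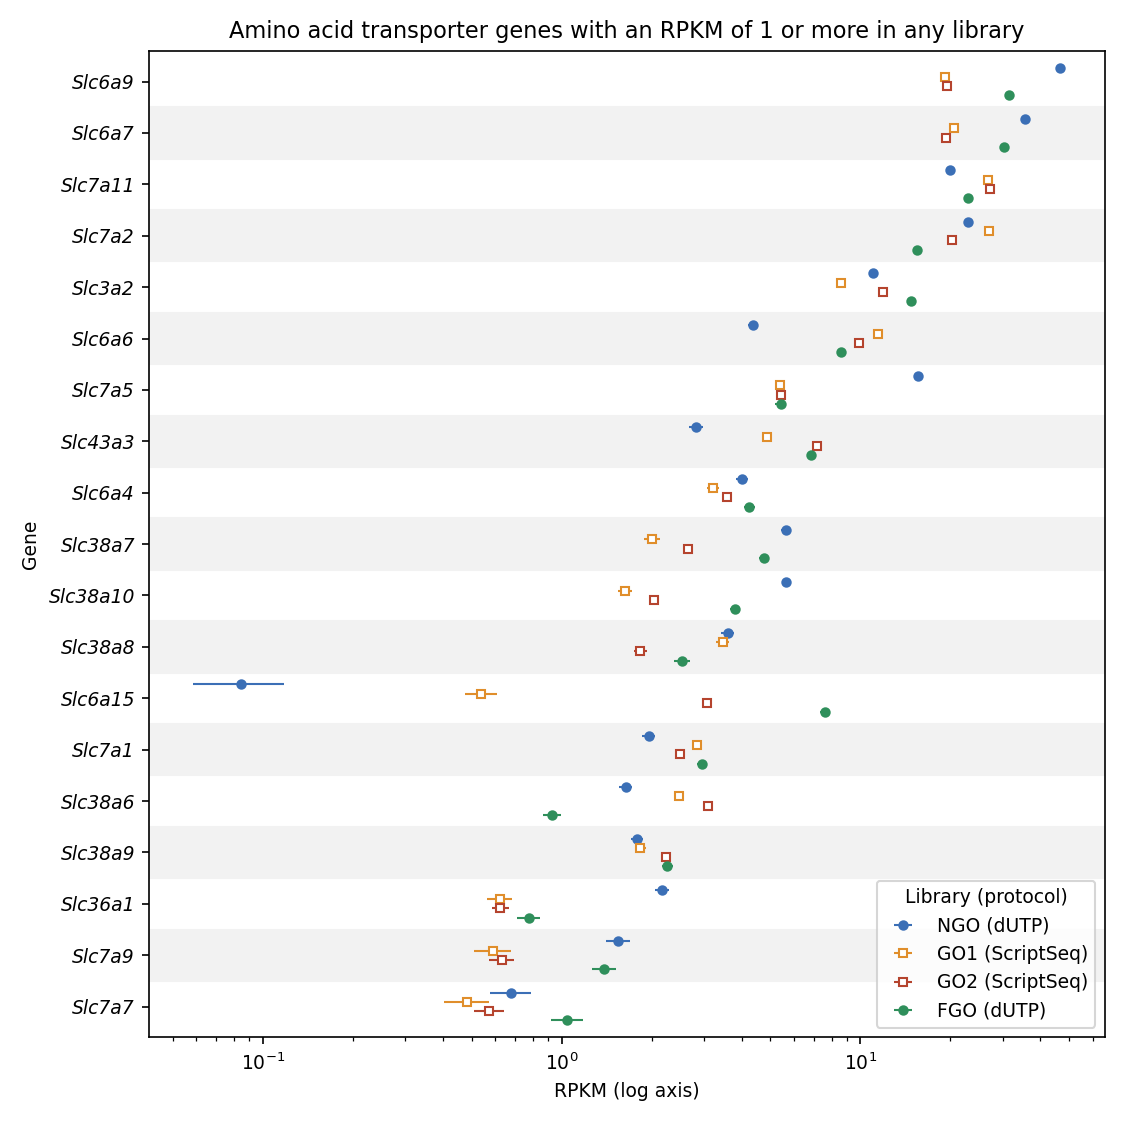
RPKM (log axis) of the 19 amino acid transporter genes that reached 1 RPKM in any library, ordered by their mean, with 1 point per library (filled circles, dUTP protocol; open squares, ScriptSeq kit) and 95% Poisson intervals, which cover counting error only. Slc6a15 spans the widest range, from 0.0844 in NGOs to 7.59 in FGOs.

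Between NGOs and FGOs, 37 members had the 20 counts in the pair that were asked for, and 21 did not. At 2-fold or more, 8 of the 37 rose, where 17.9% of all 15268 genes with as many counts did, and 7 fell, where 16.5% did. At 4-fold or more, 4 rose and 3 fell, beside 8.63% and 5.47% of all genes. The remaining 22 lay within 2-fold, and the median log2 ratio was 0.01 over the members and 0.01 over all genes. As shares of the 37, the 8 and the 7 came to 21.6% and 18.9%, close to the share of all genes in either direction.

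The genes that rose from NGOs to FGOs were Slc6a15, Slc43a1, Slc6a12, Slc38a11, Slc7a4, Slc43a3, Slc6a6 and Slc3a1, and those that fell were Slc36a4, Slc6a8, Slc38a2, Slc7a5, Slc36a1, Slc36a2 and Slc43a2. Only Slc6a15, Slc43a3, Slc6a6, Slc7a5 and Slc36a1 among these 15 were at 1 RPKM or more in either of the libraries compared. On the deposited RPKM with 0.1 added, which also leaves out the trimmed-mean scaling, 3 of the 37 members rose and 4 fell, beside 13.0% and 12.7% of all genes. Those under 2-fold there were Slc43a1, Slc38a11, Slc7a4, Slc6a6, Slc3a1, Slc6a8, Slc36a2 and Slc43a2, and of the 28 members with at least 100 counts in the pair 4 rose and 5 fell, beside 15.5% and 14.3%.

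Between GO1 and GO2, 37 members again had enough counts. At 2-fold or more, 4 rose and 3 fell, beside 6.77% and 2.95% of all 15748 genes, and at 4-fold 1 rose and 1 fell, beside 1.5% and 0.254%. Slc6a15, Slc1a4, Slc43a1 and Slc7a14 rose, Slc36a4, Slc6a14 and Slc38a2 fell, and 30 lay within 2-fold. The median log2 ratio was -0.02 over the members and 0.01 over all genes. With 0.1 added to the deposited RPKM 1 of the 37 rose, Slc6a15, and 0 fell, beside 2.53% and 0.724% of all genes. Of the 46 members with at least 3 counts in the pair 8 rose and 5 fell, beside 11.3% and 5.39%, and of the 28 with at least 100 counts 4 rose and 0 fell, beside 4.13% and 1.69%.

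Slc6a15, Slc43a1, Slc36a4 and Slc38a2 passed 2-fold in the same direction in both pairs, which share no library. Of the 33 members with enough counts in each pair, 2 thus rose in both and 2 fell in both, beside 4.1% and 1.91% of all 14848 such genes. With 0.1 added to the deposited RPKM, Slc6a15 alone of the 4 stayed past 2-fold in both pairs. Slc36a4 and Slc38a2 then came to -0.61 and -0.36 on the log2 scale from GO1 to GO2, and Slc43a1 to 0.79 between NGOs and FGOs and to 0.31 between GO1 and GO2, all under 2-fold. With a prior count of 5, Slc43a1 was also under 2-fold from GO1 to GO2, at 0.93.

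**Figure D3:**
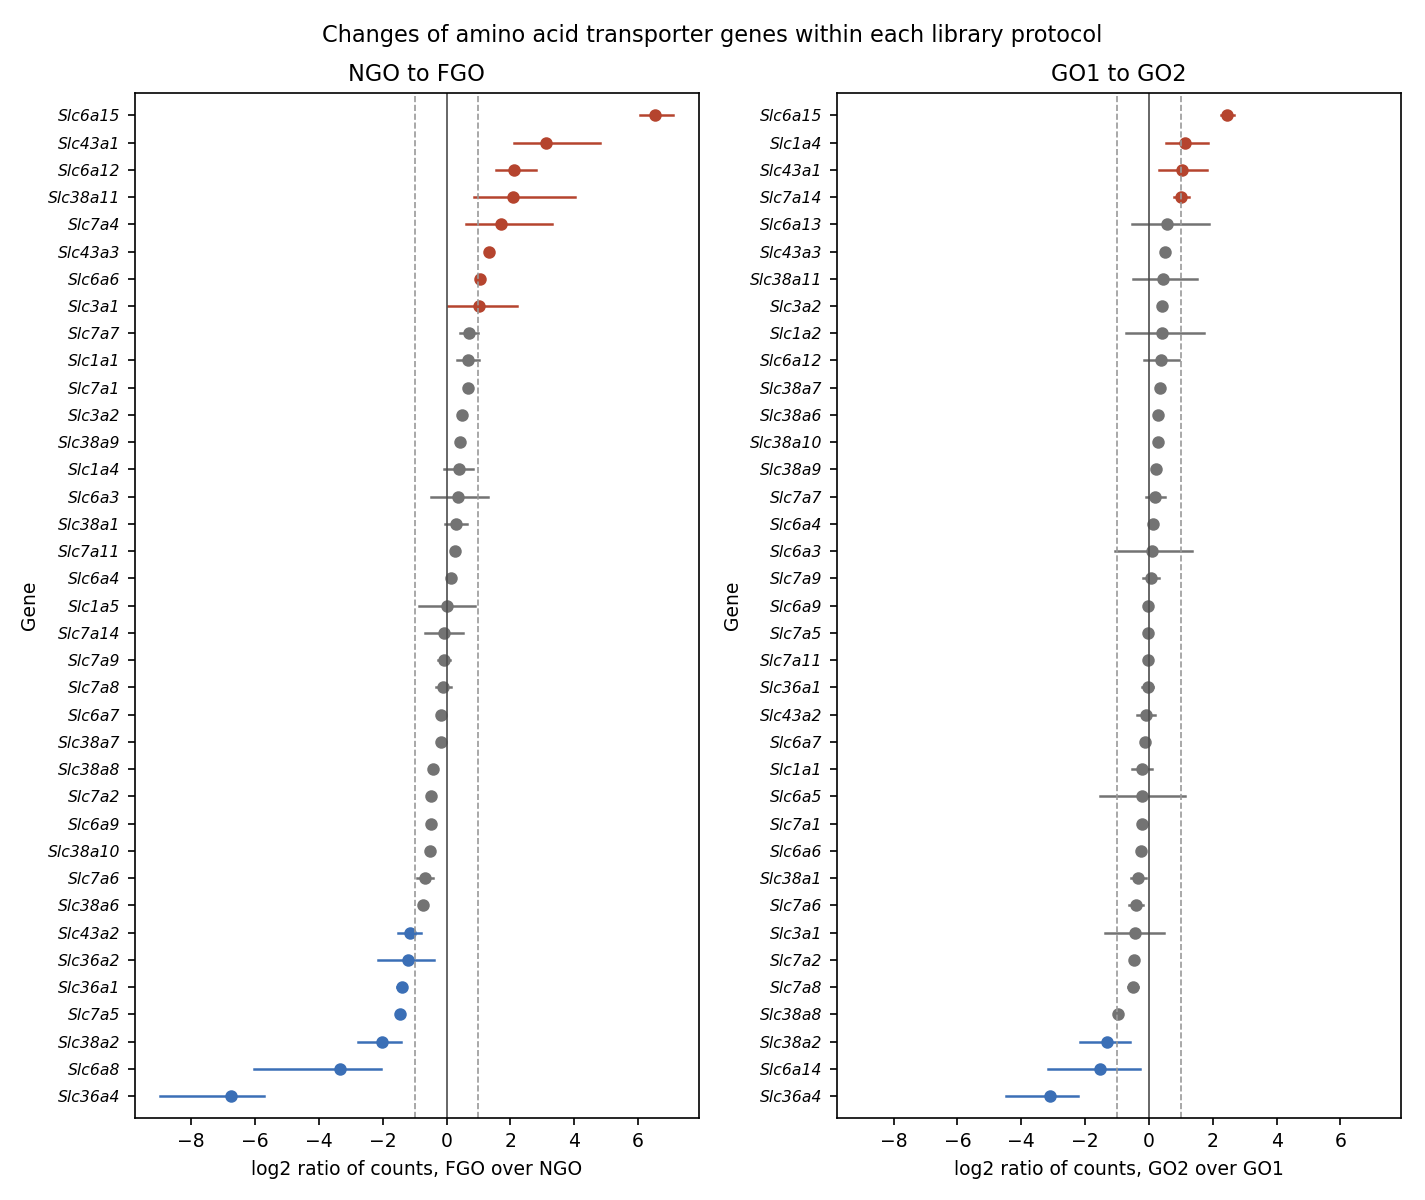
log2 ratio of counts for the 37 members with at least 20 counts in each pair of libraries made with the same protocol (left, FGO over NGO; right, GO2 over GO1), with exact 95% intervals that cover counting error only. Dashed lines mark 2-fold, with genes above it in red and genes below it in blue; Slc6a15 stands highest in both panels, at 6.52 and 2.46, and Slc36a4 lowest, at -6.76 and -3.09.

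Among the members, glycine and proline carriers gave the largest summed RPKM of any transport system in every library. By counts the light chains of SLC7 led in GO1, GO2 and FGOs, in FGOs with 29.3% of the members' counts against 26.7%. Slc6a20a, a carrier of proline outside the naming rule, had 3047 counts in FGOs, enough to close the lead there. Slc6a9 encodes GLYT1, which takes up glycine with sodium and chloride, and lies at chr4:117834506-117875198 (GRCm38). Its RPKM was 46.4 in NGOs and 31.3 in FGOs, and 19.2 in GO1 and 19.5 in GO2. Both dUTP libraries were above both ScriptSeq libraries, and within each protocol the gene stayed inside 2-fold, at a log2 ratio of -0.50 from NGOs to FGOs (95% interval -0.53 to -0.47) and -0.02 from GO1 to GO2 (-0.05 to 0.01). B4galt2, which overlaps Slc6a9 by 5939 bases on the opposite strand, had the same order of libraries, with RPKM of 18.4, 7.54, 8.72 and 15.6, whereas Gm17114, which shares 33260 bases, Ccdc24 and Gm20520 on that strand all were highest in GO2 and lowest in FGOs, at no more than 3.03 RPKM. Whether the counting used strand is not given in the sources used here, so the counts of shared stretches cannot be told apart.

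Slc6a7, which encodes a high-affinity proline carrier best known from brain synapses, was nearly as abundant. Its RPKM was 35.6 in NGOs and 30.1 in FGOs, and 20.5 in GO1 and 19.3 in GO2. Again both dUTP libraries lay above both ScriptSeq libraries, with a log2 ratio of -0.17 from NGOs to FGOs (-0.21 to -0.14) and -0.13 from GO1 to GO2 (-0.16 to -0.09). The other glycine carrier, GLYT2 of inhibitory neurons (Slc6a5), had 5, 9, 15 and 5 counts, and its RPKM did not exceed 0.0100.

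The heavy chain CD98, encoded by Slc3a2, had RPKM of 11 in NGOs and 14.7 in FGOs, and 8.61 in GO1 and 11.9 in GO2. FGOs were highest and GO1 lowest, and the log2 ratio was 0.49 (0.43 to 0.55) from NGOs to FGOs and 0.42 (0.37 to 0.48) from GO1 to GO2. The 6 light chains that pair with it (Slc7a5, Slc7a6, Slc7a7, Slc7a8, Slc7a10 and Slc7a11) summed to 37.6, 34.2, 34.3 and 30.5 RPKM. The ratio of this sum to Slc3a2 was 3.41 in the NGO, 3.97 in the GO1, 2.87 in the GO2 and 2.07 in the FGO library, so the messages of the light chains exceeded that of their heavy chain in every library.

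Slc7a11 led the sum of the light chains in every library, with Slc7a5 nearest to it in NGOs. Slc7a11 encodes xCT, which imports cystine in exchange for glutamate and so supplies cysteine for glutathione, and its RPKM was 19.9 in NGOs and 22.9 in FGOs, and 26.8 in GO1 and 27.1 in GO2. It varied little, with the ScriptSeq libraries above the dUTP libraries and a log2 ratio of 0.27 (0.25 to 0.30) from NGOs to FGOs and -0.03 (-0.05 to -0.01) from GO1 to GO2. The latter came to 0.06 when libraries were scaled by total counts and to 0.02 on the RPKM with 0.1 added, so its sign depends on the scaling. Slc7a5 encodes LAT1, which exchanges large neutral amino acids such as leucine, and its RPKM was 15.5 in NGOs and 5.41 in FGOs, and 5.38 in GO1 and 5.44 in GO2. NGOs stood apart from the other 3 libraries, which had nearly equal levels. Stage and protocol cannot be told apart between FGOs and the GO libraries.

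From NGOs to FGOs Slc7a5 fell by 1.45 on the log2 scale (interval -1.52 to -1.38), while the log2 ratio from GO1 to GO2 was -0.03 (-0.10 to 0.04). Its share of the light chain sum was 41.3% in the NGO, 15.7% in the GO1, 15.9% in the GO2 and 17.8% in the FGO library, and that of Slc7a11 was 52.9%, 78.2%, 79.0% and 75.2%. NGOs thus carried both light chains at similar levels, and the later stages mainly Slc7a11. An annotated gene of unknown function on the other strand, Gm20388, covers 26541 bases of the Slc7a5 locus and had RPKM of 3.11, 1.77, 2.32 and 3.34. The sums of the stroma and erythroid markers were also highest in NGOs, and their part in the fall of Slc7a5 was not tested.

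The other partners of CD98 were minor. Slc7a7 encodes y+LAT1, which exports cationic amino acids against neutral ones and sodium, and its RPKM was 0.675 in NGOs and 1.05 in FGOs, and 0.482 in GO1 and 0.572 in GO2. It passed 1 RPKM in FGOs alone, its log2 ratio from NGOs to FGOs was 0.70 (0.41 to 0.99), and it shares 226 bases with the antisense gene Oxa1l. Slc7a8, the broad neutral exchanger LAT2, had RPKM of 0.637 in NGOs and 0.566 in FGOs, and 0.976 in GO1 and 0.713 in GO2, and Slc7a6, which encodes y+LAT2, a near relative of y+LAT1, of 0.868 in NGOs and 0.520 in FGOs, and 0.613 in GO1 and 0.474 in GO2. From GO1 to GO2 their log2 ratios were -0.50 (-0.66 to -0.33) and -0.41 (-0.63 to -0.19), and neither passed 2-fold in either pair.

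The second heavy chain, rBAT, is encoded by Slc3a1 and pairs with the light chain of Slc7a9 to take up cystine and cationic amino acids in kidney and gut. Slc3a1 had 12 counts in NGOs and 26 in FGOs, and 19 in GO1 and 27 in GO2, and RPKM of 0.0470 in NGOs and 0.0942 in FGOs, and 0.0650 in GO1 and 0.0485 in GO2. Its log2 ratio from NGOs to FGOs was 1.01, with an interval from 0.03 to 2.19, so that its rise past 2-fold is not resolved by the counts. It shares 767 bases with the antisense gene Prepl, which had RPKM of 7.59, 6.72, 5.82 and 8.58. Slc7a9 had RPKM of 1.55 in NGOs and 1.39 in FGOs, and 0.589 in GO1 and 0.630 in GO2, with both dUTP libraries above both ScriptSeq libraries. The light chain exceeded its heavy chain between 9.07-fold in GO1 and 32.9-fold in NGOs on the RPKM scale. Of the remaining light chains, Slc7a15 had at most 6 counts, Slc7a10 and Slc7a13 at most 1, and Slc7a12 was listed at 0 in every library.

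Among the carriers of cationic amino acids, which bring in arginine, lysine and ornithine, Slc7a2 (CAT2) led in every library. Its RPKM was 22.9 in NGOs and 15.5 in FGOs, and 27.0 in GO1 and 20.2 in GO2. GO1 was highest and FGOs lowest, and the log2 ratio was -0.49 (-0.52 to -0.46) from NGOs to FGOs and -0.46 (-0.48 to -0.44) from GO1 to GO2, lower in the later library of each pair and within 2-fold in both. Slc7a1 (CAT1), the common form in proliferating cells, had RPKM of 1.96 in NGOs and 2.96 in FGOs, and 2.83 in GO1 and 2.49 in GO2, with log2 ratios of 0.66 (0.57 to 0.75) and -0.23 (-0.30 to -0.16). Slc7a2 thus exceeded Slc7a1 in every library on the RPKM scale.

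Slc7a14, a relative of the cationic carriers found on lysosomes, had RPKM of 0.0462 in NGOs and 0.0419 in FGOs, and 0.162 in GO1 and 0.339 in GO2. It was higher in both ScriptSeq libraries, rose from GO1 to GO2 (log2 1.02, 0.80 to 1.25; 0.74 on the RPKM with 0.1 added) and had a log2 ratio of -0.07 (-0.67 to 0.52) from NGOs to FGOs. The antisense gene Gm15496 shares 24792 bases with it and had RPKM of 0.792, 1.03, 1.74 and 2.22, an order of libraries that differs from that of Slc7a14. Slc7a4 had 7 counts in NGOs and 26 in FGOs, and 0 in GO1 and 5 in GO2, and rose from NGOs to FGOs by a log2 ratio of 1.71, with a wide interval (0.61 to 3.30), or 0.42 on the RPKM with 0.1 added, and Slc7a3 (CAT3) had 1 count, in GO2.

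Slc6a6 encodes the taurine carrier TauT, which like GLYT1 feeds an osmolyte pool. Its RPKM was 4.36 in NGOs and 8.64 in FGOs, and 11.5 in GO1 and 9.92 in GO2. NGOs were lowest, and both ScriptSeq libraries were above both dUTP libraries. From NGOs to FGOs the gene rose by a log2 ratio of 1.05 (0.99 to 1.12), close to the 2-fold limit, and it came to 0.94 when libraries were scaled by their total counts and to 0.97 on the RPKM with 0.1 added, both under 2-fold. From GO1 to GO2 the log2 ratio was -0.25 (-0.29 to -0.22).

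Among the members, the carriers of betaine and of the inhibitory transmitter GABA were low. Slc6a20a, a carrier of proline and betaine outside the naming rule, had RPKM of 7.12 in NGOs and 9.32 in FGOs. Slc6a12, which encodes the betaine and GABA carrier BGT1, had RPKM of 0.0800 in NGOs and 0.340 in FGOs, and 0.106 in GO1 and 0.143 in GO2. It was lowest in NGOs and highest in FGOs, rising between them by a log2 ratio of 2.12 (1.55 to 2.81; 1.29 on the RPKM with 0.1 added), with 0.38 (-0.15 to 0.94) from GO1 to GO2. Its neighbour Slc6a13 (GAT2) had 2 counts in NGOs and 3 in FGOs, and 9 in GO1 and 27 in GO2, and Slc6a11 (GAT3) had 0 counts in NGOs and 13 in FGOs, and 0 in GO1 and 15 in GO2.

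The largest rise of the whole set belonged to Slc6a15, which encodes B0AT2, a sodium-coupled carrier of branched-chain amino acids and proline, at chr10:103367808-103419378. Its RPKM was 0.0844 in the NGO, 0.539 in the GO1, 3.06 in the GO2 and 7.59 in the FGO library, from 34, 249, 2687 and 3308 counts. Each library was above the one before it and no intervals overlapped. From NGOs to FGOs the gene rose by a log2 ratio of 6.52 (6.07 to 7.09), a 91.7-fold change, which came to a log2 ratio of 5.38 on the RPKM with 0.1 added, and from GO1 to GO2 by 2.46 (2.27 to 2.65), a 5.49-fold change. Summed granulosa and endothelial markers also were higher in each library than in the one before. Of the single markers in these lists only Fshr, Cyp19a1, Kitl and Pecam1 had that order. Others, among them Amh, Inha, Amhr2 and Cdh5, were lower in GO1 than in NGOs. In FGOs Cyp19a1 and Pecam1 were at 6.08 and 9.70 RPKM but Foxl2 at 0.0265. The part of these markers in the rise of Slc6a15 was not tested.

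Among the members, Slc6a15 took its system, the neutral carriers of SLC6, from a summed RPKM of 0.108 in NGOs to 7.59 in FGOs. This sum leaves out Slc6a20a and Slc6a20b, which are outside the naming rule. They had RPKM of 7.12 and 6.43 in NGOs and of 9.32 and 7.67 in FGOs. The other 4 members of this system were near the limit of detection. Slc6a14, a broad carrier of neutral and cationic amino acids, had 8 counts in NGOs and 1 in FGOs, and 13 in GO1 and 8 in GO2, and fell from GO1 to GO2 (log2 -1.52, -3.15 to -0.29; -0.24 on the RPKM with 0.1 added). Slc6a18, a kidney carrier, had at most 6 counts in any library, Slc6a17, a carrier of synaptic vesicles, at most 4, and Slc6a19, the main neutral carrier of kidney and gut, was listed at 0 throughout.

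SLC6 also contains carriers whose substrates are not amino acids. Slc6a4, which encodes the serotonin carrier, was the only one of the 4 above 1 RPKM, with RPKM of 4.02 in NGOs and 4.25 in FGOs, and 3.21 in GO1 and 3.58 in GO2. Its level was among the steadiest of the set, with a log2 ratio of 0.15 (0.06 to 0.24) from NGOs to FGOs and 0.11 (0.03 to 0.19) from GO1 to GO2. Slc6a8, the creatine carrier, had 38 counts in NGOs and 3 in FGOs, and 5 in GO1 and 3 in GO2, and fell from NGOs to FGOs (log2 -3.32, -6.05 to -2.05; -0.66 on the RPKM with 0.1 added). The dopamine carrier Slc6a3 had 20 counts in NGOs and 27 in FGOs, and 10 in GO1 and 21 in GO2, and the noradrenaline carrier Slc6a2 1 count, in GO1.

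In the SLC38 family the carriers of systems A and N, which bring glutamine and small neutral amino acids into most cells, were low. Slc38a2 (SNAT2) had RPKM of 0.199 in NGOs and 0.0452 in FGOs, and 0.0580 in GO1 and 0.0233 in GO2. It was highest in NGOs and in both pairs lower in the later library: it fell by 2.03 on the log2 scale from NGOs to FGOs (interval -2.77 to -1.43; -1.04 on the RPKM with 0.1 added) and fell by 1.32 from GO1 to GO2 (-2.15 to -0.58). Slc38a1 (SNAT1) had RPKM of 0.139 in NGOs and 0.161 in FGOs, and 0.222 in GO1 and 0.182 in GO2, with log2 ratios of 0.28 (-0.06 to 0.63) and -0.33 (-0.57 to -0.09). The system N carriers Slc38a5 and Slc38a3 had at most 3 and 1 counts in any library.

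The less studied SLC38 genes made up nearly all of the family's sum, with 18.3, 11.4, 11.9 and 14.3 RPKM, and a different gene led in each library. Slc38a10, whose transport role is little defined, led in NGOs, with RPKM of 5.65 in NGOs and 3.79 in FGOs, and 1.63 in GO1 and 2.05 in GO2. Slc38a7, which encodes the lysosomal glutamine exporter SNAT7, nearly equalled it there, led in FGOs and had RPKM of 5.64 in NGOs and 4.75 in FGOs, and 2.01 in GO1 and 2.65 in GO2. Both were higher in the dUTP libraries, with log2 ratios from NGOs to FGOs of -0.50 (-0.57 to -0.44) and -0.18 (-0.26 to -0.10), and from GO1 to GO2 of 0.28 (0.19 to 0.38) and 0.36 (0.25 to 0.46).

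Slc38a8, a carrier of glutamine and other neutral amino acids, led in GO1, with RPKM of 3.59 in NGOs and 2.53 in FGOs, and 3.46 in GO1 and 1.83 in GO2. Its log2 ratio of -0.96 (-1.06 to -0.86) from GO1 to GO2 came just short of 2-fold and was the lowest outside the genes that fell. Slc38a6 led in GO2, with RPKM of 1.64 in NGOs and 0.930 in FGOs, and 2.47 in GO1 and 3.10 in GO2. Here the ScriptSeq libraries were the higher ones, with log2 ratios of -0.75 (-0.87 to -0.63) from NGOs to FGOs and 0.28 (0.21 to 0.35) from GO1 to GO2.

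Slc38a9 encodes a lysosomal protein that senses arginine for the growth kinase complex mTORC1, and its RPKM was 1.78 in NGOs and 2.26 in FGOs, and 1.83 in GO1 and 2.23 in GO2. All 4 values were within 1.27-fold of each other, the narrowest range of the set among genes with counts in every library. Slc38a11, an orphan of the family, had 5 counts in NGOs and 25 in FGOs, and 13 in GO1 and 35 in GO2, and rose from NGOs to FGOs by a log2 ratio of 2.08 (0.87 to 4.02), or 0.43 on the RPKM with 0.1 added.

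The proton-coupled family SLC36 was the only one in which every gene with enough counts fell from NGOs to FGOs, 3 of 3, where 16.5% of all genes fell. Slc36a1 encodes PAT1, which moves small amino acids out of lysosomes and across the plasma membrane, and its RPKM was 2.17 in NGOs and 0.776 in FGOs, and 0.621 in GO1 and 0.624 in GO2. NGOs were above the other 3 libraries, with a fall of 1.41 on the log2 scale to FGOs (interval -1.56 to -1.27), while the log2 ratio from GO1 to GO2 was -0.04 (-0.20 to 0.13).

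Slc36a4 encodes PAT4, a high-affinity carrier of proline and tryptophan, at chr9:15709738-15742384, and had the largest fall of the set. It had 525 counts in NGOs and 4 in FGOs, and 44 in GO1 and 9 in GO2, and RPKM of 0.853 in NGOs and 0.00601 in FGOs, and 0.0624 in GO1 and 0.00670 in GO2. The gene fell by 6.76 on the log2 scale from NGOs to FGOs (interval -8.96 to -5.72; -3.17 on the RPKM with 0.1 added) and fell by 3.09 from GO1 to GO2 (-4.48 to -2.21), so that few of its counts were left in GO2 and FGOs. Slc36a2 (PAT2, a carrier of glycine, alanine and proline) had 39 counts in NGOs and 17 in FGOs, and 2 in GO1 and 4 in GO2, and fell by 1.19 from NGOs to FGOs (-2.16 to -0.39), which came to -0.54 on the RPKM with 0.1 added, and Slc36a3 was listed at 0 throughout. The sums of the stroma and erythroid markers also were highest in NGOs, at 5.61 and 2.56 RPKM against 0.365 and 0 in FGOs, and their part in the falls of Slc36a1, Slc36a2, Slc36a4, Slc38a2, Slc43a2 and Slc6a8 was not tested.

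Slc43a3, which encodes a carrier of purine nucleobases and not of amino acids, made up at least 93.6% of its family's sum in every library. Its RPKM was 2.83 in NGOs and 6.83 in FGOs, and 4.87 in GO1 and 7.16 in GO2. It rose from NGOs to FGOs by a log2 ratio of 1.34 (1.25 to 1.43), and from GO1 to GO2 the log2 ratio was 0.51 (0.45 to 0.57). The summed granulosa and endothelial markers also were higher in FGOs than in NGOs, and their part in the rises of Slc43a3, Slc43a1, Slc6a6, Slc6a12, Slc38a11, Slc7a4 and Slc3a1 was not tested. The carriers of branched-chain amino acids in this family went opposite ways at low levels. Slc43a1 (LAT3) had 6 counts in NGOs and 61 in FGOs, and 20 in GO1 and 81 in GO2, and rose in both pairs, by log2 ratios of 3.11 (2.10 to 4.80) and 1.02 (0.33 to 1.83). Slc43a2 (LAT4) had 205 counts in NGOs and 95 in FGOs, and 154 in GO1 and 282 in GO2, and its fall from NGOs to FGOs of 1.15 on the log2 scale (-1.52 to -0.80) came to -0.67 on the RPKM with 0.1 added.

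The SLC1 family, which concentrates glutamate and aspartate or exchanges small neutral amino acids with sodium, was the least abundant of the 7. Slc1a1, the glutamate carrier found in most epithelia and in neurons, led it with RPKM of 0.170 in NGOs and 0.259 in FGOs, and 0.167 in GO1 and 0.148 in GO2. Its log2 ratio from NGOs to FGOs was 0.67 (0.34 to 1.02), and the antisense gene 4430402I18Rik, at RPKM of 0.695, 0.898, 0.794 and 0.482, shares 12693 bases with it. Slc1a4 (ASCT1, a carrier of alanine, serine and cysteine) had RPKM of 0.168 in NGOs and 0.209 in FGOs, and 0.0502 in GO1 and 0.116 in GO2, lower in the ScriptSeq libraries, and rose from GO1 to GO2 by a log2 ratio of 1.14 (0.53 to 1.85), which came to 0.52 on the RPKM with 0.1 added.

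Slc1a5, which encodes the glutamine exchanger ASCT2 of many dividing cells, had only 24 counts in NGOs and 25 in FGOs, and 3 in GO1 and 9 in GO2, so that its RPKM did not exceed 0.0522. The glial glutamate carriers Slc1a2 and Slc1a3 had at most 24 and 8 counts, Slc1a6 at most 4, and Slc1a7 was listed at 0 in every library. For a gene with 3000 bases of exon, 3 counts were worth 0.00904 RPKM in NGOs, 0.00789 in GO1, 0.00414 in GO2, and then 0.00836 in FGOs, so messages under these levels did not reach the minimum of 3 counts chosen here.

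In all, 36 of the 58 genes had at least 3 counts in every library, 12 in some of them, and 10 in none. Among the 10 were Slc1a7, Slc6a19, Slc7a3, Slc7a12, Slc36a3 and Slc38a3, and they include carriers that define brain, kidney or gut.

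Some members lay apart in the dUTP and the ScriptSeq libraries, a split in which stage and protocol cannot be told apart. Among 37 members with at least 40 counts over the 4 libraries, 13 had both ScriptSeq values below both dUTP values, beside 30.5% of all 15622 genes with as many counts, and 7 had both above, beside 21.2%. Slc6a9, Slc6a7, Slc7a9, Slc38a7, Slc38a10 and Slc36a1 were among the former, and Slc7a11, Slc6a6, Slc38a6, Slc7a8 and Slc7a14 among the latter. The remaining 17, Slc7a5, Slc6a15, Slc36a4, Slc43a3, Slc7a2 and Slc3a2 among them, followed neither order.

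Several members lie side by side in the genome, within 200 kb of each other, and in most of the clusters named here the genes differed in level. Slc43a1 and Slc43a3 on chromosome 2 are 73.0 kb apart and peaked at 0.0892 and 7.16 RPKM. Slc36a1, Slc36a2 and Slc36a3 lie together on chromosome 11 and peaked at 2.17, 0.108 and 0. On chromosome 15 Slc38a1 and Slc38a2, 44.5 kb apart, peaked at 0.222 and 0.199 RPKM.

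Of the other clusters, Slc6a12 and Slc6a13 on chromosome 6 are 5.34 kb apart and peaked at 0.340 and 0.0385 RPKM. Slc6a3, Slc6a18 and Slc6a19 on chromosome 13 stayed at or below 0.0653 RPKM.

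Promoter windows of 300 bases, from 250 before to 50 after the RefSeq start (GRCm38.p6), were at hand for 40 of the 58 genes. The start in use in these oocytes was not read from the data. The ratio of observed to expected CpG in the most upstream window had a median of 0.627 in the 13 genes at 1 RPKM or more in any library and 0.641 in the 27 others, with wide ranges in both, from 0.212 to 0.853 and from 0.0515 to 1.03. The windows of Slc6a9 and of Slc6a12 are shown because Slc6a9 had the highest mean level and Slc6a12, which has 66.4% identical bases in its reading frame, is its closest relative with a window among the members that stayed under 1 RPKM. That of Slc6a9 is chr4:117835008-117835307 on the plus strand, with a ratio of 0.387, and that of Slc6a12 chr6:121342324-121342623 on the plus strand, with a ratio of 0.0861.
Slc6a9: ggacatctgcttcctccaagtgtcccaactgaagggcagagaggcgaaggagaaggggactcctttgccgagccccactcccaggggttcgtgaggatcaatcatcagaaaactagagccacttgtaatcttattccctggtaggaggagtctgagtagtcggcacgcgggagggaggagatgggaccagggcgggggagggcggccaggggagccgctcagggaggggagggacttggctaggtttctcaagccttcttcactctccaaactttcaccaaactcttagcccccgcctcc
Slc6a12: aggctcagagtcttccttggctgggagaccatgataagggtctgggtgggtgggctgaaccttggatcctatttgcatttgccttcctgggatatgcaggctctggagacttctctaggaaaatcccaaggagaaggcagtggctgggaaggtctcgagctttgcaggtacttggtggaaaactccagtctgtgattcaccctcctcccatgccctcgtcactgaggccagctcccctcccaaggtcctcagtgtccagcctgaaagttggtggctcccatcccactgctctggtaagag

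Genes that cells switch on when amino acids run short, among them several carriers, are known to hold a composite element bound by ATF4 and its partners. Its letters TGATGNAA were searched on both strands. They occurred in 3.97% of all 32851 windows and in 4 of the 59 windows of members, which belonged to 3 of 40 genes, Slc7a11, Slc1a4 and Slc7a7. The windows of Slc7a11 and Slc1a4 were chosen for display after the matches and the levels had been seen, and matches are in capitals. That of Slc7a11, chr3:50443564-50443863 on the minus strand, has 2 matches in opposite orientation, at bases 185 and 204, and that of Slc1a4, chr11:20332664-20332963 on the minus strand, has 1, at base 247 on the other strand. A match describes the letters and not a site in use.
Slc7a11: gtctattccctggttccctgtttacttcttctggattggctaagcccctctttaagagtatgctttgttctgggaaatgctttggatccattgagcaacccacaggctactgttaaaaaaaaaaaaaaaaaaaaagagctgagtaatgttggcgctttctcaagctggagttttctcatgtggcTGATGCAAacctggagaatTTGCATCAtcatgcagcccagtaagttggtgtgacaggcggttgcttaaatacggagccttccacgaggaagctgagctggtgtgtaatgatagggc
Slc1a4: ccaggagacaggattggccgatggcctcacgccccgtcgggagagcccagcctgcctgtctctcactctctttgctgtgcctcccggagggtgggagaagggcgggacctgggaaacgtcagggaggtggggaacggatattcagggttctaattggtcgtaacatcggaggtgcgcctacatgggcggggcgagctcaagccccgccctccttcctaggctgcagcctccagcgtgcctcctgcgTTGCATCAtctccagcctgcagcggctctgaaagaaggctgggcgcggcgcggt

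The levels of these genes differed widely. Slc7a11 stayed between 19.9 and 27.1 RPKM, Slc1a4 between 0.0502 and 0.209, and Slc7a7 between 0.482 and 1.05.

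Of the genes of the amino acid response itself, all 16 had enough counts, and 3 rose and 2 fell from NGOs to FGOs, beside 17.9% and 16.5% of all genes, with none past 2-fold from GO1 to GO2, beside 6.77% and 2.95%. Their median log2 ratios were 0.25 and 0.17, beside 0.01 and 0.01 over all genes. Atf4, its central transcription factor, had RPKM of 33.5 in NGOs and 70.3 in FGOs, and 65.9 in GO1 and 81.4 in GO2, and rose from NGOs to FGOs by a log2 ratio of 1.14. Ddit3 and Trib3, which act downstream of it, rose by 1.35 and 2.57. Asns, the asparagine synthetase gene, fell by 1.92, and Psat1, which encodes an enzyme of serine synthesis, fell by 2.80. Stroma and erythroid markers also summed highest in NGOs, and granulosa and endothelial markers higher in FGOs than in NGOs. Their part in these changes, and in those of the sensing genes and other carriers below, was not tested.

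Of 32 genes listed for amino acid sensing by mTORC1, 26 were in the table and had enough counts, and from NGOs to FGOs 2 of the 26 rose and 3 fell, beside 17.9% and 16.5% of all genes. Those that rose were Rragc and Rragd, which encode GTPases that bring the complex to the lysosome, by log2 ratios of 1.09 and 1.45. The leucine sensor relative Sesn3, Nprl3, which encodes a part of an inhibitor of those GTPases, and Fnip2, which encodes a partner of folliculin, fell by 1.13, 1.03 and 1.16. None passed 2-fold from GO1 to GO2, where 6.77% of all genes rose and 2.95% fell, and the median log2 ratios were -0.44 and -0.08. Rragc came to 0.97 when libraries were scaled by total counts, and Rragd, at or below 0.0841 RPKM, to 0.34 on the RPKM with 0.1 added, where Nprl3 also was just under 2-fold.

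Among 19 amino acid carriers outside the 7 families or the naming rule, 15 had enough counts from NGOs to FGOs, of which 3 rose and 1 fell, beside 17.9% and 16.5% of all genes, and 17 from GO1 to GO2, of which 2 rose and 0 fell, beside 6.77% and 2.95%. Their median log2 ratios were 0.33 and 0.14. Slc15a4, which exports histidine and small peptides from lysosomes, had RPKM of 7.88 in NGOs and 26.8 in FGOs, and 4.50 in GO1 and 8.86 in GO2, and rose by 1.84 from NGOs to FGOs. Slc25a13, the mitochondrial exchanger of aspartate and glutamate, had RPKM of 0.842 in NGOs and 4.75 in FGOs, and 1.29 in GO1 and 2.73 in GO2, and rose in both pairs, by log2 ratios of 2.56 and 1.03.

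The vesicular glutamate carriers Slc17a8 and Slc17a7 passed 2-fold at no more than 0.108 RPKM, Slc17a8 upwards in both pairs and Slc17a7 downwards from NGOs to FGOs, and both were under 2-fold with 0.1 added. Slc25a15, the mitochondrial ornithine carrier, was near or above the leading members, with RPKM of 44.9 in NGOs and 53.9 in FGOs, and 46.7 in GO1 and 46.2 in GO2. Slc16a10, which carries aromatic amino acids, had RPKM of 11.3 in NGOs and 13.2 in FGOs, and 13.7 in GO1 and 12.4 in GO2. Slc6a20a and Slc6a20b, which belong to SLC6 by sequence but not by the form of their symbols, had RPKM of 7.12 in NGOs and 9.32 in FGOs, and 6.51 in GO1 and 7.51 in GO2, and of 6.43 in NGOs and 7.67 in FGOs, and 5.02 in GO1 and 4.58 in GO2. Slc6a20a encodes a carrier of proline and betaine, and both genes were within 2-fold in both pairs.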

How the data were processed

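RNA-Seq of 4 libraries, 1 per stage, was used. Per the submitters' processing notes, reads were trimmed with Trim Galore 0.2.8 and aligned with TopHat2 2.0.9 to GRCm38. The authors deposited RPKM per gene, and the program, annotation and strand setting of the counting are not given in the sources used here.

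Whole counts were recovered from the RPKM: the value of 1 count per library was fitted on 1-exon genes of GENCODE release M21, where 99.49% to 99.84% of values came out whole (within 0.0005, rising with the count to at most 0.2), and exon lengths were then found that made all 4 counts whole. Where the annotation did not give the length, the smallest such length was taken, so counts that share a factor are understated. The total behind RPKM (110595207 in NGOs, 126796747 in GO1, 241385707 in GO2, 119629250 in FGOs) exceeded the counts on genes.

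Each pair of libraries was brought to one scale with the trimmed mean of its log ratios over the whole table (30% of ratios and 5% of mean expression trimmed at each end, prior count 1). Genes whose counts in a pair summed to 20 or more were called at 2-fold and 4-fold. Intervals are 95%, exact binomial for ratios and Poisson for levels. The steps were tested on simulated data, with 97.1% of 1000 lengths recovered exactly. Python 3.11.15, numpy 2.4.6, pandas 2.3.3, scipy 1.17.1, edlib 1.3.9 (identity of the longest reading frames of GENCODE transcripts) and matplotlib 3.10.9 were used.

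Named with values were members at 1 RPKM or more, the 5 largest rises and falls per pair among members with 100 counts in the higher library, the leading gene of each family, and members within 200 kb of another; genes that passed 2-fold outside this rule were named after their values were seen. Members and lists were chosen with earlier results of these data known. One gene of the SLC38 family and 1 of the SLC6 family are not reported here, the latter except within sums and counts of members. Alternatives changed the scaling, the prior count, the count minimum, the pseudocount, the detection limit and the length correction.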

Additional observations from a re-analysis of the deposited data

How the results depend on the processing

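The number of members with at least 3 counts stayed within 1.5 times under a minimum of 10 counts and when each library was thinned to the NGO total, and came to 27 in the NGO, 26 in the GO1, 27 in the GO2 and 25 in the FGO library at an RPKM of at least 0.1. Rescaled to an equal sum in every library (TPM scale), the members summed to 1015, 839, 864 and 909 in the same order, and without dividing by length SLC6 held 37.1%, 26.2%, 27.0% and 37.1% of their counts. From NGOs to FGOs, 3 members rose and 4 fell on the deposited RPKM with 0.1 added, and 4 rose with at least 100 counts in the pair. From GO1 to GO2, 1 rose and 0 fell with 0.1 added, 8 rose and 5 fell with at least 3 counts, and 0 fell with at least 100. Of the other carriers, from NGOs to FGOs 0 fell with 0.1 added, 2 with at least 3 counts and 0 with at least 100, and from GO1 to GO2 1 rose with 0.1 added, 1 with a prior count of 5 and 1 with at least 100 counts. Of the sensing genes, from NGOs to FGOs 1 rose with 0.1 added (Rragc), 1 under scaling by total counts (Rragd) and 1 with at least 100 counts. The setting with 0.1 added changes both the prior and the scaling, whose parts were not tested apart, and the count minimum changes which genes are counted; the cause of the other shifts was not tested. Scaling by total counts moved the median log2 ratio of all genes from NGOs to FGOs to -0.11. Of 28 members at 1 RPKM or more or among the 5 largest changes, 28 kept their side of 2-fold in both pairs with median-of-ratios scaling and with a prior count of 5, and under total counts 27 from NGOs to FGOs, all but Slc6a6. Of all members called in the main setting, 15 between NGOs and FGOs and 7 between GO1 and GO2, none took the opposite sign where it had a value. Slc3a1 from NGOs to FGOs fell short of 2-fold under total counts and with a prior count of 5, and Slc43a1 from GO1 to GO2 with a prior count of 5; with 0.1 added to the RPKM, 8 of the 15 and 6 of the 7 (all but Slc6a15) were under 2-fold. With 1 library per stage, neither biological spread nor the effect of a library could be measured, and genes under 20 counts in a pair have no call.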
